A study of Bos taurus with 18 samples.

Results

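The endometrium of 6 untreated Holstein cows was compared between day 4 and day 7 of the same estrous cycle, each cow serving as her own reference. The comparison uses 12 of the 18 libraries of the series, the 6 taken on day 4 and the 6 taken on day 7 of the untreated cycle, paired by the animal letter (A to F). The remaining 6 libraries, from day 7 of a later treated cycle, are not analysed here. All cows were synchronized with Ovsynch, a hormone protocol that fixes the time of ovulation, and day 0 was the day of estrus. Cells were brushed from the horn that adjoins the ovary carrying the corpus luteum, so a library holds the surface cells that a brush collects and not a full-thickness piece of endometrium. No cow had received a progestogen at either sampling. Each day 7 sample followed the day 4 brushing of the same cycle, so day and earlier brushing cannot be told apart. Animals A to C were later given 100 mg of 17-hydroxyprogesterone caproate (17-OHPC) and 10 mg of progesterone, called the 17-OHPC/P4 arm. Animals D to F, called the P4 arm, were later given 100 mg of progesterone alone. The arms stand here for 2 sets of 3 untreated cows.

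These days lie in the early luteal phase, when the new corpus luteum secretes rising progesterone. Progesterone acts on the uterine epithelium and stroma through the nuclear receptor PGR. Epithelial proliferation under estrogen gives way to a secretory lining, whose secretions (histotroph: lipids, amino acids, ions, enzymes and glycoproteins) feed the free-floating ruminant embryo before it attaches.

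Total counts per library ran from 29347255 to 40733544, and 17779 genes passed the filter on low counts. On the first principal component (32.0% of the variance of log2 values) the day 7 library lay above the day 4 library in 6 of 6 animals. Animal F moved furthest along the second component (-77.2 on day 4 and 73.7 on day 7) and stood apart in several cell markers. In F the median log2 change was 2.23 for 22 markers of ciliated cells, -3.42 for 17 of stroma, -3.02 for 9 of smooth muscle, -1.75 for 13 of endothelium, -1.87 for 24 of T and NK cells and -1.50 for 12 of macrophages. Animal A also had low medians for stroma (-1.49) and smooth muscle (-2.26). Animal B had high medians for endothelium (2.79) and stroma (1.21). The deviations of F's libraries from the means of their days did not correlate with each other (r = -0.25 across genes), while those of the other animals did (r from 0.40 to 0.60). The summed level of the 15 general epithelial markers was 4829 to 7121 CPM (counts scaled by library size) on day 4 and 4916 to 6858 CPM on day 7. Stromal markers summed to 873 to 10030 CPM on day 4 and 483 to 7647 CPM on day 7.

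**Figure D1:**
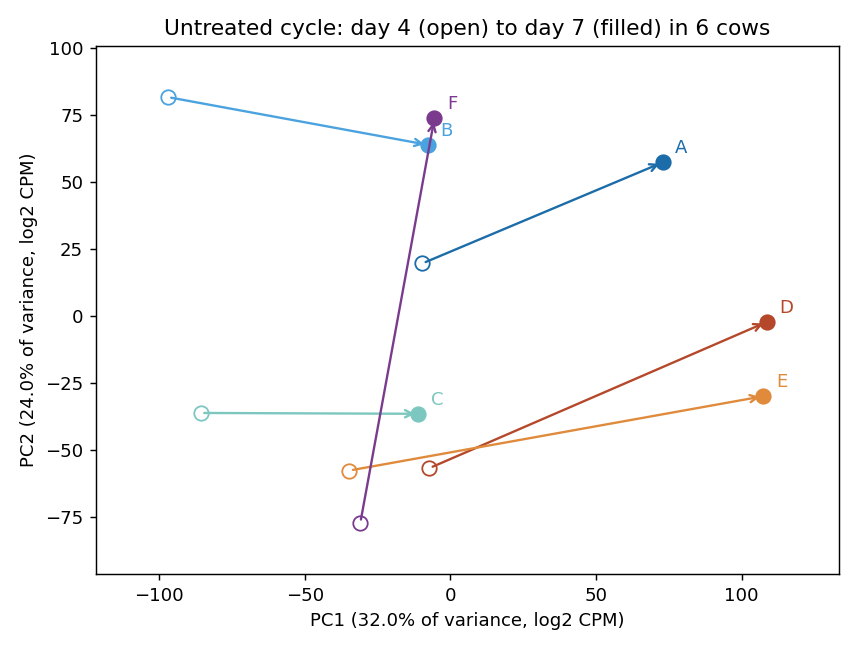
Each library by its first and second principal component of log2 CPM (axes give the share of variance); open circles are day 4, filled circles day 7, and an arrow joins the libraries of 1 animal. All 6 arrows point to higher values of the first component, and that of animal F runs mainly along the second.

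Between the days 1347 genes rose (7.58% of those tested) and 394 fell (2.22%), in all 9.79%, at an adjusted p under 0.05 in edgeR's quasi-likelihood test with the animal as a block. All changes are log2 fold changes, day 7 against day 4, with a standard error (SE). The SE was not fitted directly but computed back from the change and the F statistic of the test, and the 95% intervals rest on it. For genes with almost no counts on 1 day it can be narrower than the spread between animals. Of the genes that rose 1277 were higher in 6 of 6 animals (12.6% of all genes tested were), and of those that fell 371 were lower in 6 of 6 (8.38%). The changes upward were larger: 146 genes rose by at least 3 on the log2 scale and 6 fell by as much. The median change was 1.22 among genes that rose, -0.96 among genes that fell and -0.01 over all genes tested. For 9168 genes (51.6%) the 95% interval lay within 1 on the log2 scale on either side of 0. Without animal F, 1314 genes rose and 744 fell. Without D 545 rose and 31 fell, without E 436 and 32, without A 931 and 109, without B 934 and 202, and without C 1057 and 368. The part of cell composition in these counts was not tested, and in bulk samples fewer cells of a type and less RNA per cell cannot be told apart.

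The genes with the smallest p among those whose days did not overlap were led by SS18L1, a subunit of a chromatin remodelling complex. Its level in animals A to F was 24.2, 6.23, 8.35, 22.8, 20.4 and 14.9 CPM on day 4 and 134, 35.5, 47.5, 168, 121 and 68.0 CPM on day 7. Animals B and C were lowest on both days, and the highest day 4 value lay below the lowest day 7 value, a separation shown by 2.82% of genes upward and 1.15% downward. The change was 2.52 ± 0.12 (adjusted p = 0.000223). CERS6, a ceramide synthase, had 10.7, 4.78, 4.36, 11.8, 10.95 and 8.96 CPM on day 4 and 117, 46.3, 33.4, 100.4, 121 and 55.8 CPM on day 7, a change of 3.14 ± 0.15 (adjusted p = 0.000223). Other sphingolipid and sterol genes rose with the days apart. GM2A, the lysosomal activator of ganglioside breakdown, rose by 3.51 ± 0.27 from a median of 94.9 CPM (74.5 to 294) to 1579 CPM (808 to 2462). SMPDL3B, a phosphodiesterase-like protein of the cell surface, rose by 2.91 ± 0.20 from 7.28 CPM (6.43 to 15.4) to 52.2 CPM (43.8 to 128). CYP39A1, a hydroxylase of oxysterols, rose by 4.24 ± 0.30 from 91.3 CPM (17.7 to 122) to 1294 CPM (221 to 2866), with animal C lowest on both days. Their adjusted p ran from 0.00102 to 0.00115, and none of these 5 calls was lost when 1 animal was left out.

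**Figure D2:**
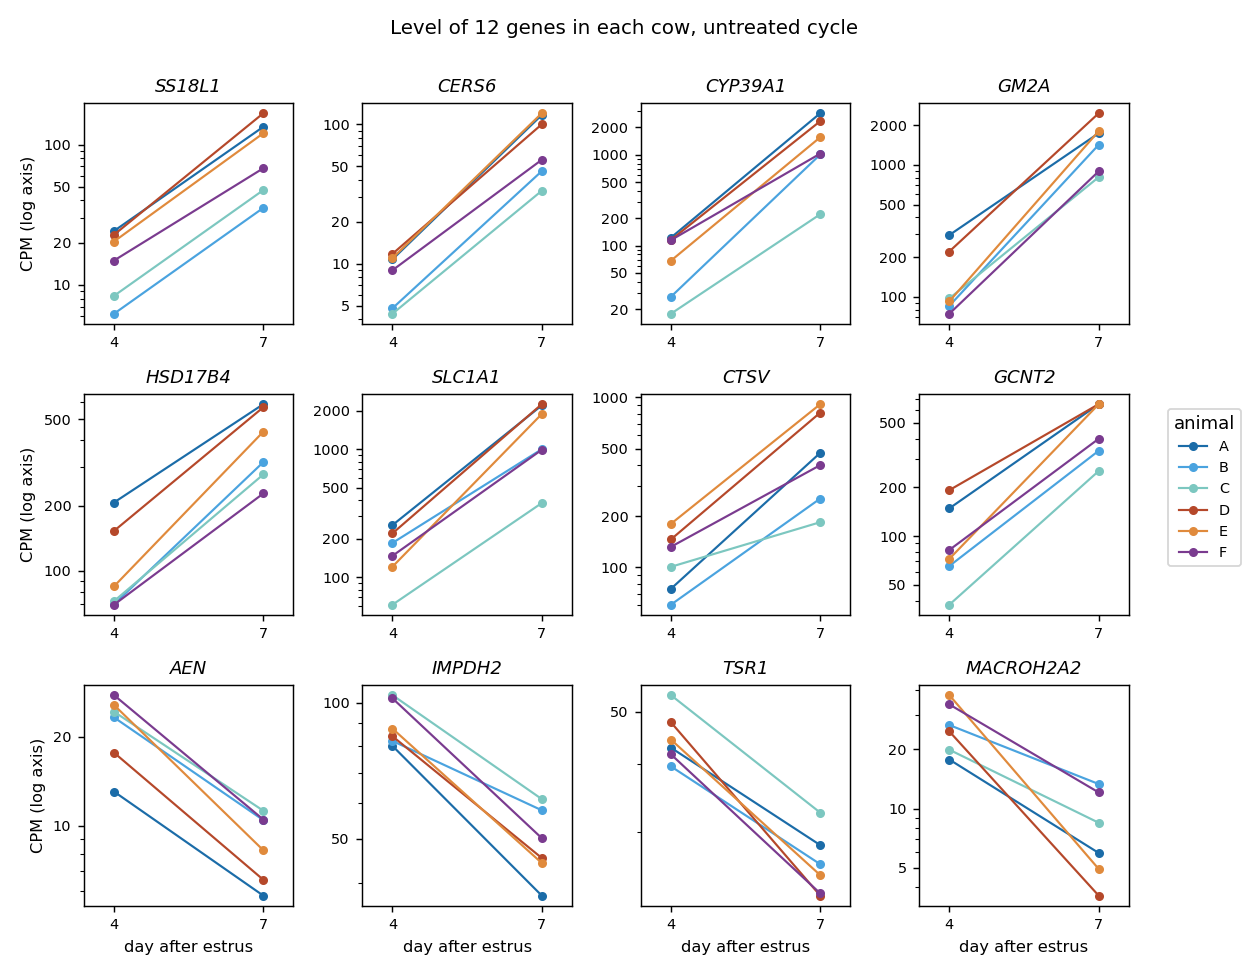
Level of 12 genes on day 4 and day 7 (x axis: day after estrus; y axis: CPM on a log axis), 1 line per animal. The upper 8 genes rise and the lower 4 fall in all 6 animals. Animal C is lowest on both days for CERS6, CYP39A1, SLC1A1 and GCNT2.

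Among called genes higher in 6 of 6 animals, the largest gain in mean CPM (a difference of levels that also grows with transcript length) was that of ANPEP, an aminopeptidase of the apical membrane, from 434 ± 469 to 3851 ± 2564 CPM (SD, n = 6). Its change was 3.73 ± 0.84 (adjusted p = 0.0342). The next gains were those of SLC13A5, CRIPTO, SLC11A2, LY6E and SELENOP. SLC11A2, a carrier of iron and other divalent metals, had a median of 1200 CPM (305 to 2234) on day 4 and 3425 CPM (1693 to 6311) on day 7, a change of 1.93 ± 0.32 (adjusted p = 0.0127). Its days overlapped, since D had 2234 CPM on day 4 and C 1693 CPM on day 7, but each animal was higher on day 7. CYBRD1, a ferric reductase with a smaller gain in CPM, rose by 3.70 ± 0.26 (adjusted p = 0.00102) from 18.8 CPM (9.61 to 33.0) to 220 CPM (98.0 to 723). The citrate carrier SLC13A5 rose by 5.74 ± 0.85 (adjusted p = 0.00858) from 49.0 CPM (9.35 to 620) to 2640 CPM (1524 to 6382). SELENOP, which carries selenium, rose by 2.56 ± 0.33 (adjusted p = 0.00584) from 343 CPM (219 to 705) to 2319 CPM (1275 to 3583). ALPL, an alkaline phosphatase, rose by 3.64 ± 0.37 (adjusted p = 0.00290), and the surface protein LY6E by 1.77 ± 0.28 (adjusted p = 0.0109). CRIPTO, a co-receptor of Nodal, rose by 5.06 ± 1.02 (adjusted p = 0.0245). CRIPTO ran from 1.40 CPM in C to 981 CPM in A on day 4 and from 1148 to 6496 CPM on day 7. The ANPEP call was lost without C, D, E or F (adjusted p up to 0.115) and that of CRIPTO without B, D or E (up to 0.0787).

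Several of the largest folds started from almost no counts. HAVCR1, a receptor for phosphatidylserine on dying cells, had 16 counts in all 6 day 4 libraries together and 16 to 1344 counts per library on day 7, with a fitted change of 7.99 ± 0.45 (adjusted p = 0.000400). Animal C, at 0.406 CPM, was far below the other day 7 libraries (11.6 to 51.1 CPM). The changes of single animals ran from 3.04 in C to 8.90 in D, wider than the SE of the fit. The organic cation carrier SLC22A3 had 12 counts on day 4 and 63 to 923 per library on day 7. ACMSD, an enzyme of tryptophan breakdown, had 45, of which 33 were in animal A, and 248 to 1175 per library on day 7. SLC12A1, a sodium, potassium and chloride cotransporter, had 36 on day 4, of which 24 were in animal E, and 22 to 777 per library on day 7. Its lowest day 7 level (0.635 CPM in F) was close to its highest day 4 level (0.520 CPM in E). SLC22A3, ACMSD and SLC12A1 rose by 7.56 ± 0.66, 7.22 ± 0.60 and 6.34 ± 0.83 (adjusted p from 0.00162 to 0.00614). The size of such folds depends on the prior count of the fit. Genes under 1 CPM in every day 4 library and above it in every day 7 library numbered 20, of which 19 were called, and 0 genes went the other way.

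Some lipid genes of uptake, storage and oxidation rose, while most members of each list did not pass. The members of the lists here and below were chosen with earlier results of these data known. Shares above those of all genes tested may come from that choice, which was not tested. Of 20 genes that take up, bind or activate fatty acids 7 rose (35%, beside 7.58% of all genes tested) and 0 fell, with a median change of 1.10 (all genes tested: -0.01). SLC27A6, a fatty acid transport protein, had 3.73, 0.323, 0, 0.863, 0.346 and 0.574 CPM in animals A to F on day 4 and 111, 25.4, 9.06, 105, 67.2 and 31.7 CPM on day 7, a change of 6.42 ± 0.51 (adjusted p = 0.00138). Every day 7 value lay above every day 4 value. DBI, which binds acyl-CoA, rose by 2.87 ± 0.26 (adjusted p = 0.00183), the acyl-CoA ligase ACSL4 by 2.45 ± 0.35 (adjusted p = 0.00778) and the lipoprotein lipase LPL by 3.85 ± 0.72 (adjusted p = 0.0193). Of 25 genes of triglycerides and lipid droplets 4 rose (16%) and 0 fell (median 0.32). DGAT2, which makes triglycerides, had 4.68, 1.03, 1.45, 2.82, 1.26 and 3.16 CPM on day 4 and 649, 243, 126, 299, 925 and 199 CPM on day 7. The droplet coat protein PLIN2 was at 43.0 to 103 CPM on day 4 and 159 to 523 CPM on day 7. The breakdown genes MGLL, a monoglyceride lipase (2.17 ± 0.36, adjusted p = 0.0127), and ABHD5, the co-activator of the first lipase (1.54 ± 0.36, adjusted p = 0.0374), rose too. Of 35 genes of fatty acid oxidation 11 rose (31.4%) and 0 fell (median 0.30). They included the peroxisomal enzyme HSD17B4, at 69.7 to 207 CPM on day 4 and 228 to 588 CPM on day 7 (1.94 ± 0.15, adjusted p = 0.00115), the isomerase ECI2 (2.97 ± 0.33, adjusted p = 0.00401), the coactivator PPARGC1A (2.49 ± 0.45, adjusted p = 0.0161) and the carnitine transferase CPT1A (1.23 ± 0.21, adjusted p = 0.0139). With 1 animal left out, 5 to 9 supply genes, 2 to 4 droplet genes and 4 to 8 oxidation genes rose, the oxidation count being lowest without E (4) or D (5). Without F 1 gene of each list fell. The call was lost for LPL without A, D or E (adjusted p up to 0.0777), MGLL without D (0.0533), ABHD5 without any 1 animal but A (up to 0.130) and CPT1A without D or E (up to 0.0588).

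Of 37 lysosomal genes 15 rose (40.5%, beside 7.58% of all genes tested) and 1 fell, with a median of 0.53. CTSV, a cysteine protease, was at 74.8, 60.3, 101, 146, 180 and 132 CPM on day 4 and 472, 254, 184, 814, 912 and 399.6 CPM on day 7 (2.01 ± 0.25, adjusted p = 0.00555). The protease inhibitor CST6 rose by 2.36 ± 0.37 (adjusted p = 0.0109), the sialidase NEU1 by 1.78 ± 0.27 (adjusted p = 0.00941) and the glucuronidase GUSB by 1.74 ± 0.27 (adjusted p = 0.0105). The exception was CTSW, a protease of T and NK cells, which fell by 1.04 ± 0.24 (adjusted p = 0.0369). Its fall stood beside lower values of the T and NK cell markers: 24 of 24 were negative, 1 of them passed (CD2, -0.93 ± 0.20, adjusted p = 0.0307), and their summed level was 158 to 491 CPM on day 4 and 111 to 227 CPM on day 7. The part of T and NK cells in the CTSW value was not tested. Of 37 autophagy genes 8 rose (21.6%) and 0 fell (median 0.30). The autophagosome protein MAP1LC3A rose by 3.02 ± 0.52 (adjusted p = 0.0147), from 19.1 to 39.5 CPM up to 104 to 581 CPM. WIPI1, which acts at the forming membrane, rose by 2.20 ± 0.36 (adjusted p = 0.0127) and the cargo receptor SQSTM1 by 1.03 ± 0.17 (adjusted p = 0.0126). Without D or E 4 lysosomal genes rose, and without A 7. Of the autophagy genes 0 rose without E and 3 without A or D. The call was lost without E for CST6 (0.0510), MAP1LC3A (0.0586), WIPI1 (0.0598) and SQSTM1 (0.0640), without B, D or E for CTSW (up to 0.121) and without B, C, D or E for CD2 (up to 0.0971).

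Genes of transport and secretion gave single large changes within lists of which few members passed. Of 28 amino acid carriers 5 rose (17.9%, beside 7.58% of all genes tested) and 1 fell (3.57%, beside 2.22%), with a median of 0.07. SLC1A1, a glutamate carrier, had 255, 185, 60.9, 219.9, 121 and 147 CPM on day 4 and 2209, 1003, 380.4, 2257, 1892 and 993 CPM on day 7, with C lowest on both days. SLC7A4 rose by 1.15 ± 0.16 (adjusted p = 0.00687), and SLC1A5, a glutamine carrier, fell by 0.81 ± 0.19 (adjusted p = 0.0412). Of 37 genes of ion and water transport 3 rose (8.11%) and 1 fell (2.7%), near the shares of all genes tested (median 0.23). FXYD4, of a family that modulates the sodium pump, rose by 5.0 ± 0.40 (adjusted p = 0.00139) from 0.702 to 8.78 CPM up to 45.6 to 318 CPM. The exchanger CLCN3 rose by 0.86 ± 0.12 (adjusted p = 0.00667). SCNN1G, a subunit of the epithelial sodium channel, fell by 1.24 ± 0.30 (adjusted p = 0.0402), though not in animal C (17.4 and 19.2 CPM). Of 43 mucin and glycosylation genes 6 rose (14%) and 0 fell (median 0.08). The branching enzyme GCNT2 rose by 2.41 ± 0.20 (adjusted p = 0.00148), B3GNT2 by 1.19 ± 0.14 (adjusted p = 0.00417) and B4GALT4 by 1.29 ± 0.19 (adjusted p = 0.00919). The membrane mucin MUC13 rose by 2.67 ± 0.47 (adjusted p = 0.0152), while MUC1 had -0.57 ± 0.25 (95% interval -1.15 to 0.01, adjusted p = 0.175). Of 60 secretory pathway genes 4 rose (6.67%) and 1 fell (1.67%), also near the shares of all genes tested (median 0.21). Among those that rose was the cargo receptor LMAN1 (0.71 ± 0.11, adjusted p = 0.00904). With 1 animal left out 3 to 6 mucin and glycosylation genes rose (3 without D or E) and 1 to 4 secretory genes (1 without E, 2 without B, D or F). Without F 3 amino acid carriers and 2 mucin and glycosylation genes fell. The call was lost without D or E for MUC13 (up to 0.0635), without any 1 animal but F for SLC1A5 (up to 0.122) and without any 1 animal but C for SCNN1G (up to 0.121).

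In the lists of polyamines and energy supply few members passed. Of 22 polyamine genes 4 rose (18.2%, beside 7.58% of all genes tested) and 0 fell (median 0.34). SAT1, which acetylates spermidine and spermine, was at 548, 234, 229.9, 159.9, 124 and 167 CPM on day 4 and 1014, 834, 954, 2057, 1662 and 854 CPM on day 7 (2.43 ± 0.41, adjusted p = 0.0136). ODC1, the first enzyme of synthesis, rose by 2.22 ± 0.46 (adjusted p = 0.0276) in 5 of 6 animals, animal A having 1094 CPM on day 4 and 961 CPM on day 7. Of 34 glycolysis genes 2 rose (5.88%, below the share of all genes tested) and 0 fell (median 0.33). They were the regulator PFKFB2 (2.66 ± 0.29, adjusted p = 0.00348) and the glucose carrier SLC2A1 (1.11 ± 0.24, adjusted p = 0.0306). Of 75 nuclear-encoded genes of the respiratory chain 73 had positive values and 3 rose (4%, also below that share, median 0.32). Without animal A, whose own median was -0.32, 13 of them rose, and without B, C, D or E 0 did. Each of the 13 mitochondrially encoded genes missed the threshold (median 0.36). Glycolysis genes that rose numbered 6 without F, 4 without A and 1 without D or E. Polyamine genes that rose numbered 1 without E, 2 without B, C or D and 6 without A. The call was lost for ODC1 without B, C, D or E (up to 0.0967) and for SLC2A1 without D or E (up to 0.118).

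Factors of the nucleolus, where ribosomes are assembled, were among the genes that fell. Of 73 genes of ribosome assembly 22 fell (30.1%, beside 2.22% of all genes tested) and 0 rose, 66 had negative values, and the median was -0.35. The median over the list was negative in each animal, from -0.42 in A to -0.29 in B. TSR1, an assembly factor of the small subunit, had 42.9, 39.6, 53.6, 47.8, 44.4 and 41.7 CPM on day 4 and 28.4, 26.2, 32.5, 22.9, 25.0 and 23.1 CPM on day 7 (-0.78 ± 0.11, adjusted p = 0.00667). Its days did not overlap. NOL6 fell by 1.16 ± 0.20 (adjusted p = 0.0136), RRP8 by 0.83 ± 0.15 (adjusted p = 0.0152), NPM3 by 1.15 ± 0.22 (adjusted p = 0.0221) and the abundant nucleolin gene NCL by 0.58 ± 0.15 (adjusted p = 0.0451). Of 76 ribosomal protein genes 1 fell (1.32%, RPL7A, -0.64 ± 0.14, adjusted p = 0.0282), and the median was -0.24. Ribosomal protein genes have many near-identical copies that can share reads, so their values are uncertain. IMPDH2, the limiting enzyme of guanine nucleotide synthesis, had 80.3, 82.3, 104, 84.3, 87.6 and 102 CPM on day 4 and 37.4, 57.8, 61.2, 45.3, 44.2 and 50.1 CPM on day 7 (-0.88 ± 0.11, adjusted p = 0.00552). The number of assembly genes that fell was 4 without E, 6 without D, 9 without A, 11 without B, 14 without C and 23 without F. The call was lost for NOL6 without D (0.0509), RRP8 without E (0.0549), NPM3 without A, D or E (up to 0.0811), and NCL and RPL7A without any 1 animal but F (up to 0.135 and 0.0966).

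Other genes with the smallest p among those that fell act on chromatin, RNA and the cell skeleton. AEN, a nuclease of the p53 response, had 13.0 to 27.7 CPM on day 4 and 5.78 to 11.2 CPM on day 7 (-1.32 ± 0.14, adjusted p = 0.00300). MACROH2A2, a histone variant, fell by 1.82 ± 0.30 (adjusted p = 0.0127), and MARCKSL1, which acts on actin, by 1.25 ± 0.17 (adjusted p = 0.00614). EMID1, a matrix protein, fell by 1.27 ± 0.17 (adjusted p = 0.00615) and TRMT61A, a methyltransferase of transfer RNA, by 0.73 ± 0.12 (adjusted p = 0.0106). These 5 kept their call without any 1 animal. Among called genes lower in 6 of 6 animals, the largest losses in mean CPM were those of CD74, the invariant chain of MHC class II (-1.28 ± 0.31, adjusted p = 0.0411), the growth factor MDK (-1.73 ± 0.40, adjusted p = 0.0364) and the tubulin genes TUBA1B (-1.40 ± 0.26, adjusted p = 0.0189) and TUBB (-1.36 ± 0.27, adjusted p = 0.0232). Tubulin genes have close paralogs that can share reads. The transcription factor SOX4 fell by 1.55 ± 0.34 (adjusted p = 0.0309). Some of these falls were close to none in 1 animal: in C -0.01 for CD74, -0.17 for MDK and -0.10 for SOX4, and in B -0.14 for TUBB. CD74 had -0.62 in animals A to C and -1.93 in D to F, and MDK -0.86 and -2.54. The matrix genes FBLN1 (-1.81 ± 0.40, adjusted p = 0.0324) and FN1 (-1.07 ± 0.22, adjusted p = 0.0268) are markers of stroma. Of 17 such markers 14 had negative values and these 2 fell (11.8%, beside 2.22% of all genes tested). The part of stromal cells in these changes was not tested. FN1 in animal C was 828 CPM on day 4 and 596 CPM on day 7, above all other animals on both days. Leaving out 1 animal ended the call for CD74 and FN1 (A, B, D or E, adjusted p up to 0.133 and 0.0948), MDK, TUBB, SOX4 and FBLN1 (A, D or E, up to 0.118, 0.0853, 0.0977 and 0.107) and TUBA1B (A or D, up to 0.0713).

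Among the genes of cell division 8 of replication fell (0 without A, D or E), and the values of the mitosis genes differed in sign between animals. Of 46 genes of DNA replication 8 fell (17.4%, beside 2.22% of all genes tested) and 0 rose (median -0.68), and 44 had negative values. The median over the list ran from -0.05 in B to -1.46 in E. ORC1, of the origin recognition complex, fell by 1.84 ± 0.41 (adjusted p = 0.0323), the helicase subunit MCM6 by 1.39 ± 0.35 (adjusted p = 0.0463), the polymerase subunit POLD1 by 1.32 ± 0.32 (adjusted p = 0.0415) and GINS4 by 1.29 ± 0.30 (adjusted p = 0.0350). Of 42 mitosis genes 0 fell and 2 rose (4.76%, beside 7.58% of all genes tested), although the median was -1.70 and 40 had negative values. The median over the list was -3.42 in A, -2.53 in D, -3.38 in E and -1.57 in F, but 0.47 in B and 0.19 in C. MKI67, a marker of dividing cells, shows this split: B went from 13.7 to 27.3 CPM and C from 51.1 to 69.0 CPM, while the other animals went from 158 to 452 CPM down to 9.45 to 32.1 CPM (-2.33 ± 0.88, 95% interval -4.36 to -0.29, adjusted p = 0.125). Both mitosis genes that rose did so in 6 of 6 animals. SPC24, of the kinetochore, had 31.0, 3.16, 6.65, 7.54, 21.9 and 13.1 CPM on day 4 and 93.1, 45.4, 114, 432, 199.8 and 80.4 CPM on day 7 (3.5 ± 0.54, adjusted p = 0.0100). CCNB1, the mitotic cyclin B1, had 293, 34.2, 35.6, 134, 79.6 and 42.3 CPM on day 4 and 356, 159.6, 124, 324, 240.2 and 89.9 CPM on day 7 (1.38 ± 0.24, adjusted p = 0.0156). The SPC24 call held without any 1 animal and that of CCNB1 was lost without D or E (up to 0.0619) or with no block (0.277). Among 22 inhibitors of the cell cycle 0 were called (median 0.26). The number of replication genes that fell was 13 without B, 5 without C and 6 without F. Of the mitosis genes 5 fell without C, 2 without B and 10 with no block. The call was lost for ORC1 without A, D or E (up to 0.108), MCM6 and GINS4 without A, C, D or E (up to 0.142 and 0.112) and POLD1 without A, D, E or F (up to 0.130).

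**Figure D3:**
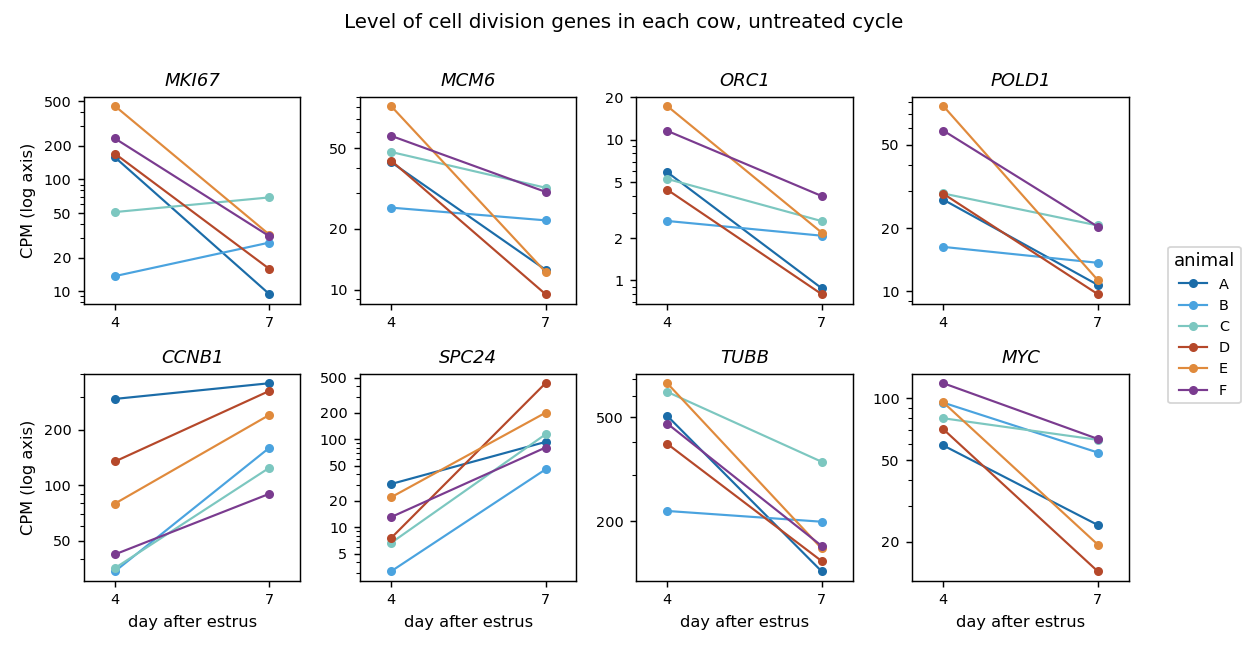
Level of 8 genes of cell division and growth on day 4 and day 7 (x axis: day after estrus; y axis: CPM on a log axis), 1 line per animal. MKI67 falls in A, D, E and F and not in B and C, whereas CCNB1 and SPC24 are higher on day 7 in all 6.

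Of the regulators of growth and patterning few passed, and the shares that rose among WNT, growth factor and uterine transcription factor genes lay near that of all genes tested (7.58% rose and 2.22% fell). Of 56 WNT and planar polarity genes 5 rose (8.93%) and 3 fell (5.36%), with a median of -0.10. The ligand WNT11 rose by 3.0 ± 0.57 (adjusted p = 0.0208) from 1.66 to 61.3 CPM up to 42.9 to 248 CPM. AXIN2, a target and inhibitor of WNT signaling, fell by 1.33 ± 0.20 (adjusted p = 0.00832) and the receptor FZD2 by 1.91 ± 0.32 (adjusted p = 0.0127). Of 71 growth factor genes 6 rose (8.45%) and 1 fell (1.41%), with a median of -0.07. The insulin receptor INSR was at 18.5 to 36.5 CPM on day 4 and 39.6 to 177 CPM on day 7, and the receptor IGF2R rose by 1.38 ± 0.28 (adjusted p = 0.0245). SMO, the transducer of hedgehog signals, fell by 2.08 ± 0.42 (adjusted p = 0.0258). Of 49 transcription factors of the uterus 5 rose (10.2%) and 1 fell (2.04%), with a median of -0.08. PAX2 rose by 1.86 ± 0.24 (adjusted p = 0.00576), GATA2 by 1.41 ± 0.20 (adjusted p = 0.00667) and KLF4 by 1.68 ± 0.35 (adjusted p = 0.0282). Of 30 polycomb and oncofetal RNA-binding genes 1 rose (3.33%, JARID2, 1.42 ± 0.18, adjusted p = 0.00555) and 3 fell (10%, median -0.01), with CBX2 at -1.71 ± 0.35 (adjusted p = 0.0265). Of 35 galectin, TIMP and matrix protease genes 3 rose (8.57%) and 0 fell (median 0.00). They were the protease inhibitors TIMP2 (1.90 ± 0.26, adjusted p = 0.00687) and TIMP3 (2.56 ± 0.43, adjusted p = 0.0128) and the sheddase ADAM10 (1.41 ± 0.15, adjusted p = 0.00300). Of 31 tight junction and polarity genes 5 rose (16.1%) and 0 fell (median 0.19), among them the claudin gene CLDN7 (1.26 ± 0.20, adjusted p = 0.0101). Without E 0 WNT genes and 1 growth factor gene rose, and without D 1 and 2. Without A 1 WNT gene rose. The tight junction count was 1 without D or E and 2 without B, and 5 uterine transcription factors fell without F, while 3 rose without C, D or E. The polycomb and RNA-binding genes that fell numbered 0 without A, D or E, and the growth factor genes that fell 4 without B. Without F 5 of the galectin, TIMP and protease genes rose. The call was lost without E for WNT11 (0.0751) and TIMP3 (0.0590), without D for FZD2 (0.0551), without C, D or E for KLF4 (up to 0.105) and without A, D or E for IGF2R, SMO and CBX2 (up to 0.101, 0.0899 and 0.0937).

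Receptors of steroids moved apart from each other. Of 18 receptor and co-chaperone genes 3 rose (16.7%, beside 7.58% of all genes tested) and 2 fell (11.1%, beside 2.22%), with a median of -0.23. PGR, the nuclear progesterone receptor, had 107, 48.4, 65.8, 109.7, 70.0 and 75.9 CPM on day 4 and 30.04, 27.3, 54.6, 47.5, 34.2 and 45.8 CPM on day 7. Each animal was lower on day 7, animal C by the least, and the days overlapped (-0.98 ± 0.19, adjusted p = 0.0230). ESR1, the estrogen receptor alpha, was lower in 6 of 6 animals and missed the threshold (-0.80 ± 0.22, 95% interval -1.30 to -0.30, adjusted p = 0.0569). ESR2, the estrogen receptor beta, rose by 1.22 ± 0.22 (adjusted p = 0.0175), the membrane estrogen receptor GPER1 by 2.31 ± 0.42 (adjusted p = 0.0166) and PAQR8, a membrane progestin receptor, by 1.55 ± 0.29 (adjusted p = 0.0186). FKBP5, a co-chaperone of steroid receptors, had 0.47 ± 0.33 (95% interval -0.30 to 1.23, adjusted p = 0.377). Of 22 prostaglandin and oxytocin receptor genes 6 rose (27.3%) and 0 fell (median 0.35). PTGS2, the cyclooxygenase that starts prostaglandin synthesis, had 41.1, 1.97, 10.5, 28.96, 19.0 and 22.5 CPM on day 4 and 203, 68.6, 213, 227, 186 and 39.0 CPM on day 7 (3.13 ± 0.56, adjusted p = 0.0158). The terminal enzymes AKR1B1 (3.20 ± 0.34, adjusted p = 0.00326) and PTGIS (1.77 ± 0.26, adjusted p = 0.00896) and the receptor PTGER4 (1.91 ± 0.28, adjusted p = 0.00874) rose, as did both rows that carry the symbol AKR1C4, which cannot be told apart by symbol. OXTR, the oxytocin receptor, was lower in every animal but C, where it was 1083 CPM on day 4 and 1225 CPM on day 7, and missed the threshold (-1.25 ± 0.33, 95% interval -2.02 to -0.48, adjusted p = 0.0540). Without E 0 receptor genes were called, and without D 2 rose and 0 fell. The call was lost without D or E for PGR (up to 0.0853), GPER1 (up to 0.0751) and PTGS2 (up to 0.0626), without E for ESR2 (0.0664) and without A or E for PAQR8 (up to 0.0850).

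**Figure D4:**
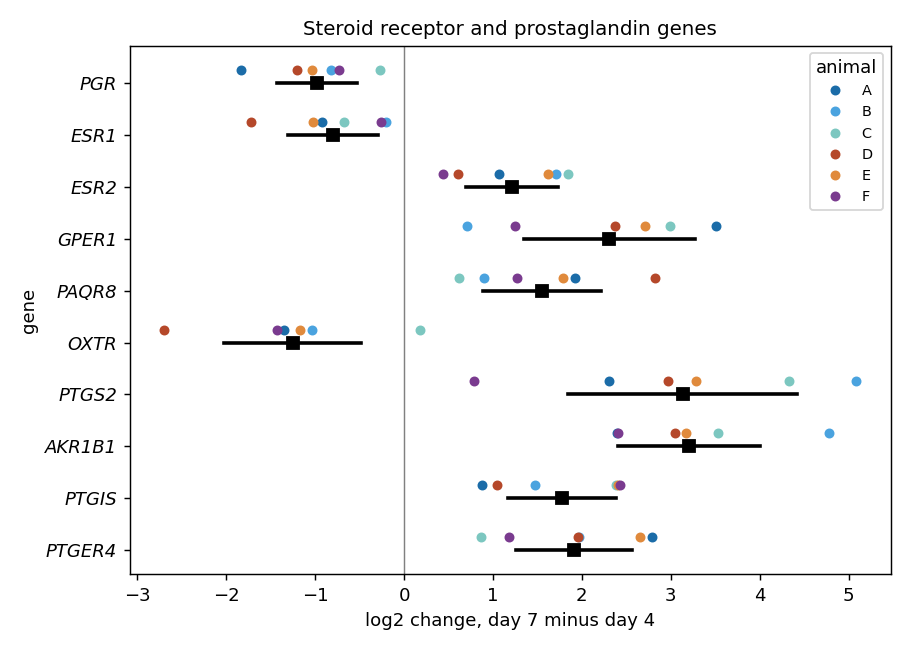
Log2 change from day 4 to day 7 (x axis) of 10 genes: black squares are the fitted change, black bars its 95% interval and colored points the 6 animals. The intervals of ESR1 and OXTR lie below 0 although neither passed after adjustment over all genes, and the OXTR point of animal C lies above 0.

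Immediate early genes rose in part, with animal C highest. Of 21 members 7 rose (33.3%, beside 7.58% of all genes tested) and 1 fell (4.76%, beside 2.22%), with a median of 0.94. The median over the list was 2.07 in C and 0.19 to 1.25 in the others. The nuclear receptor NR4A1 had 1.90 to 12.6 CPM on day 4 and 7.79 to 168 CPM on day 7, the highest value on both days being that of C (2.5 ± 0.42, adjusted p = 0.0133). ZFP36, which destabilizes messenger RNA, rose by 1.44 ± 0.28 (adjusted p = 0.0224). MYC, a driver of growth and ribosome production, fell by 1.32 ± 0.29 (adjusted p = 0.0316) in 6 of 6 animals. The number that rose was 4 without A or C, 0 without D and 1 without E. The call was lost for NR4A1 without D (0.0566), ZFP36 without D or E (up to 0.0875) and MYC without A, D or E (up to 0.0915). Of 32 interferon-stimulated genes 2 rose (6.25%) and 1 fell (3.12%), with a median of 0.04. Of 29 complement and antigen presentation genes 1 rose (3.45%) and 1 fell (3.45%), with a median of -0.47, and 5 fell without F. Of 37 genes of the sarcomere and calcium stores 5 rose (13.5%) and 0 fell (median 0.06), and of 20 circadian genes 1 rose (5%). The shares of interferon-stimulated, complement and circadian genes that rose lay below 7.58%. Without D 0 interferon-stimulated genes rose, and without A, D, E or F 0 circadian genes did.

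Few markers of other cells passed. Of 22 ciliated cell markers all had negative values and 0 passed (median -0.55), and the median change in F (2.23) was opposite in sign to those of the other animals (-1.83 to -0.02). Without F 5 of them fell. FOXJ1, the master regulator of cilia, had -0.89 ± 0.47 (95% interval -1.98 to 0.19, adjusted p = 0.240). In animal F it went from 32.6 to 115 CPM and in the other 5 it was lower on day 7. Of 11 neutrophil markers 0 passed (median 0.40), with a summed level of 12.8 to 176 CPM on day 4 and 75.8 to 561 CPM on day 7. Of 12 macrophage markers 1 rose (8.33%, beside 7.58% of all genes tested). It was CD163, a scavenger receptor, by 2.91 ± 0.69 (adjusted p = 0.0395), a call lost without A, B, D or E (up to 0.136). Without F 3 macrophage and 2 neutrophil markers rose, and without A 3 T and NK cell markers fell. The markers of smooth muscle, endothelium (9 and 13 tested), B cells (7) and red blood cells (4) gave 0 calls. Their summed levels were uneven between libraries. Red cell markers ran from 5.86 to 2365 CPM on day 4 (median 6.67) and from 6.38 to 4248 CPM on day 7 (median 9.36). On day 4 B cell markers ran from 6.52 to 234 CPM (median 16.0) and smooth muscle markers from 64.9 to 598 CPM (median 85.7). Of 5 squamous markers 1 rose (20%), KRT14 (2.83 ± 0.63, adjusted p = 0.0335, lost without C, D, E or F, up to 0.121). Of 15 general epithelial markers 1 rose (6.67%), CLDN7. EPCAM, an epithelial adhesion protein, had 0.11 ± 0.20 (95% interval -0.35 to 0.57, adjusted p = 0.748) and PTPRC, the leukocyte antigen CD45, -0.32 ± 0.25 (95% interval -0.90 to 0.27, adjusted p = 0.433).

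**Figure D5:**
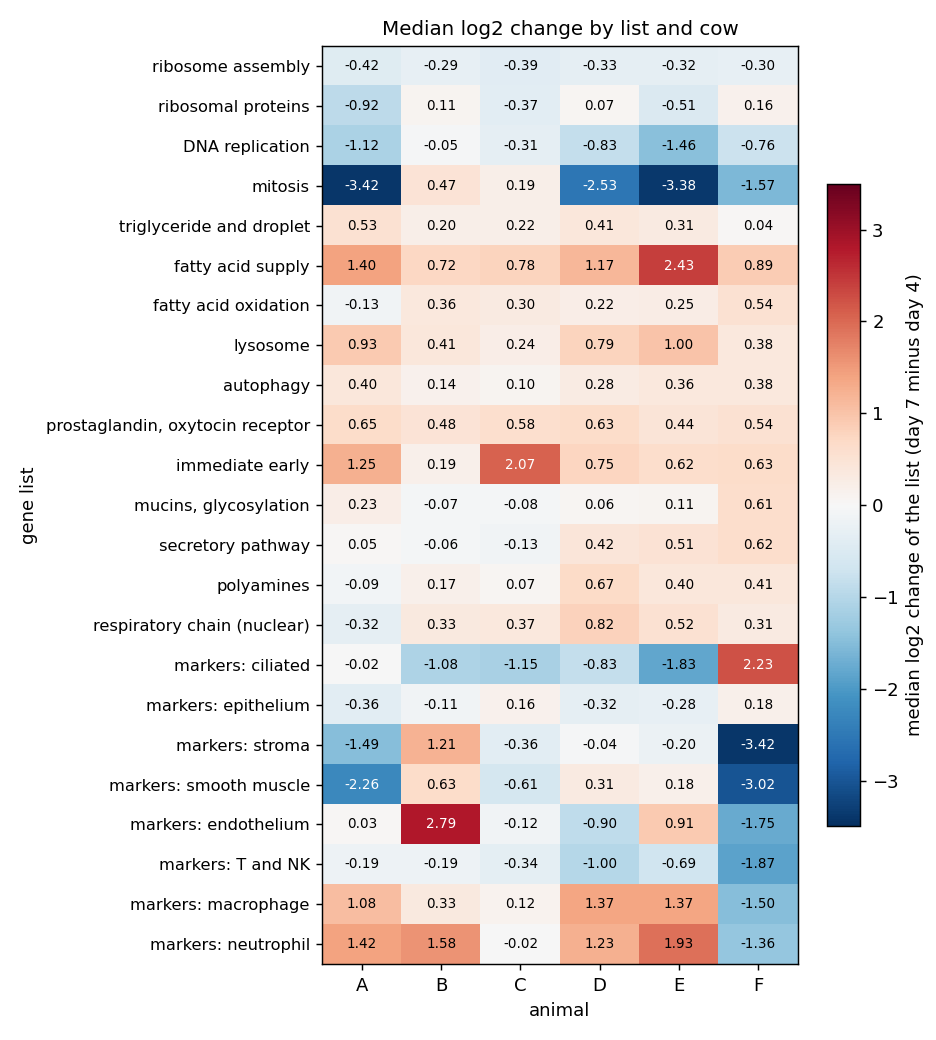
Median log2 change from day 4 to day 7 of 23 gene lists (y axis) in each animal (x axis), printed in each cell and colored from blue (lower on day 7) to red (higher). Ribosome assembly is negative and fatty acid supply positive in all 6 animals, and mitosis differs in sign between B and C and the rest. The ciliated and macrophage markers of F are opposite in sign to those of the other animals. Stroma and smooth muscle markers are strongly negative in both A and F.

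Before any treatment the arms gave different numbers of calls, and the count of genes whose change differed between them was 0 in edgeR's test and 642 in DESeq2's Wald test. In the 17-OHPC/P4 arm 84 genes rose (0.472%) and 0 fell (2484 at an unadjusted p under 0.05), and in the P4 arm 1506 rose (8.47%) and 916 fell (5.15%). Both arms were read from the same fit of all 12 libraries with a day effect per arm, and neither was fitted alone. In edgeR's test of the difference the smallest adjusted p was 0.193, and 2140 genes (12%) were at an unadjusted p under 0.05. All 1347 genes that rose in the pooled comparison had positive values for either arm, with medians of 1.07 in animals A to C and 1.39 in D to F. All 394 that fell had negative values, with medians of -0.72 and -1.11. The pooled comparison holds both arms, so these signs are not independent of the calls. The smallest p values of the difference belonged to RNASE4, a secreted ribonuclease, EFNB2, an ephrin ligand, and SERPINA5, a protease inhibitor. RNASE4 was at 21.3 to 37.5 CPM on day 7 in animals A to C (0.17 ± 0.15) and went from 5.07 to 13.7 CPM up to 36.7 to 73.3 CPM in D to F (2.62 ± 0.16). EFNB2 had -0.11 ± 0.20 in A to C and -3.07 ± 0.22 in D to F, from 85.2 to 104 CPM down to 9.20 to 16.4 CPM. SERPINA5 had 0.53 ± 0.24 and 3.94 ± 0.28. DNAJB9, a chaperone of the endoplasmic reticulum, had 0.27 ± 0.17 and 2.29 ± 0.18. Each was at adjusted p = 0.193 for the difference in edgeR's test.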

How the data were processed

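Poly(A) RNA of cytobrush samples was sequenced as 2 x 150 bp reads, per the labels' protocols. Per the submitters' processing notes, the tools were STAR, featureCounts, cutadapt, FastQC and DESeq2, with no versions. The choice of build, annotation, strand setting and read pair handling is not given in the sources used here. Values were deposited by the authors as raw counts per gene for 38001 identifiers, 17715 of them without a symbol; 0 columns belonged to other samples. Low counts were mostly even (78.1% of counts from 1 to 20, 50.8% of large counts), so independent fragments may be fewer than counts.

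The 12 untreated libraries were fitted in edgeR 4.0.16 (R 4.3.3): filterByExpr, TMM factors (0.846 to 1.14), robust quasi-likelihood F test, animal as a block, Benjamini-Hochberg adjustment over 17779 genes, called at 0.05. The treated libraries were left out of the fit. The difference between arms was tested as an interaction. CPM use TMM-scaled library sizes, and changes per animal a prior count of 2. The pairing comes from the labels, which give 1 letter per cow. Deviations of an animal's libraries from the means of their days correlated at 0.40 to 0.60 in A to E and at -0.25 in F. Of 153 pairs of libraries 0 were identical. The test was tried on simulated counts.

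The members and the 42 lists were chosen with earlier results of these data known, so a share above that of all genes tested may come from this choice. Genes with a symbol on 1 row were named by a rule: of called genes changed alike in 6 of 6 animals, the 12 per direction with the smallest p and no overlap of days, the 8 with the largest CPM difference and the 8 with the largest fold (at least 10 CPM on the higher day), up to 4 called members per list and direction with its most abundant member, 8 genes for the arms, and a fixed set of receptors and markers. The text gives those that carry the description, and results for some genes named by the rule are left out. Lists were described by counts and medians, without a set test. Alternatives were DESeq2 1.42.0 (size factors and Wald test), limma 3.58.1 (voom), other filters, no block, all 18 libraries, and each animal left out. The day effect of each arm was read from the interaction fit. Counts of list members without each animal, and the log2 scale used to look for values far from the others, were added after seeing the data. Cows were separate animals, and each gave 1 library per day.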

Additional observations from a re-analysis of the deposited data

Results flagged for a closer look

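Values far from the other 5 animals of a day were looked for by the gap to the nearest value as a share of the range, on log2(CPM + 0.1), in 236 groups of 6 (118 genes and 2 days). The search was first run on linear CPM, and the log2 scale, which is closer to that of the test, was taken after the larger number on the linear scale had been seen. For these groups the log2 scale gave 10 values and the linear scale 27, and chance alone marks about 5% of groups. Animal C was far below the others for HAVCR1 on day 7 (0.406 CPM) and far above them for FN1 (596 CPM) and ZFP36 (346 CPM) on day 7. Animal A was far above for ACMSD on day 4 (0.9198 CPM) and far below for EMID1 (13.1 CPM) and FZD2 (0.704 CPM) on day 7 and MUC1 on day 4 (219 CPM). Animal D was far above for ABHD5 on day 7 (30.8 CPM) and B4GALT4 on day 4 (147 CPM). Animal E was far below for FKBP5 on day 7 (139.6 CPM). Animal F had none.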

How the results depend on the processing

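All 1741 calls kept their direction in every alternative in which they were tested. The alternatives use the same libraries or most of them, so these signs are not independent of the calls. Without E 26.8% of the calls passed again, and without D 32.8%. DESeq2's Wald test called 4320 genes, 2405 higher (55.7%) and 1915 lower, beside 1347 higher and 394 lower in the main fit. With at least 1 CPM required in every library of 1 day, 64.4% of the calls were higher and 714 genes were lower. The fit with no replicate block called 882 higher, and that of all 18 libraries with the block 2649 genes, 1048 of them lower. All 18 libraries with no block gave 841 lower. In the fit of all 12 libraries with a day effect per arm, the effect of the 17-OHPC/P4 arm gave 84 genes, 84 higher and 0 lower. That of the P4 arm gave 916 lower. Leaving out 1 animal gave 468 to 2058 calls, 436 to 1314 higher and 31 to 744 lower. The difference between arms called 642 genes in DESeq2's Wald test with all animals. In edgeR's test it called 0 with all animals and 0 with any 1 animal left out. DESeq2's test was not run with an animal left out. The causes were not tested. Of 106 called genes named in the text 55 passed without any 1 animal, and 46 were lost without E, 42 without D, 23 without A, 12 without B, 11 without C and 5 without F. With no replicate block 82 passed. The limits are 6 animals, 1 library per animal and day, and brushed cells of varying makeup. Another is the day 4 brushing before each day 7 sample. Low counts may also hold both reads of a pair, so that depth limits genes near 1 CPM.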
